A study of Mus musculus with 12 samples.

Results

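The genes described here encode the Wnt ligands and the proteins that release and bind them. They were chosen by symbol: every gene whose annotated symbol is Wnt or Fzd followed by a digit, plus 7 genes named one by one (Lrp5, Lrp6, Ror1, Ror2, Ryk, Porcn and Wls). The rule found 37 of the 19937 genes measured, namely 19 ligands, 10 Frizzled receptors, 5 co-receptors, 2 secretion genes and Fzd10os, an RNA from the strand opposite Fzd10 that met the rule through its symbol and encodes no receptor. Each gene was read from its 1-symbol probe set with the highest mean, and Wnt4 was the member that had 2 such probe sets. Of the 37 members 34 reached a log2 expression of 6 in at least 3 arrays, and Wnt1, Wnt8b and Fzd10os did not.

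RNA had been prepared from Lewis lung carcinoma, a mouse lung tumour cell line, taken from the lungs of female C57BL/6 hosts, and was measured on 12 Affymetrix arrays, 3 in each of 4 groups. The groups were wild type hosts in air, wild type hosts in smoke, RelA/p65 deficient hosts in air and RelA/p65 deficient hosts in smoke, so all 4 carried the tumour. RelA, also called p65, is a protein of the NF-kB family of transcription factors. The labels give no smoke dose, host age or deleted cell type, although the title of the series names myeloid cells, nor do they say that arrays of a group came from separate animals. The p-values therefore reflect array-to-array spread only, and that spread may be technical. Rela itself was not lower in the arrays labelled deficient. It was higher there by 0.20 in air (limma adjusted p = 0.0285) and 0.23 in smoke (limma adjusted p = 0.00873), as were 20.5% and 22.7% of all genes. Its level lay between 9.16 and 9.26 in wild type air, 9.01 and 9.19 in wild type smoke, 9.38 and 9.45 in deficient air, and 9.27 and 9.37 in deficient smoke. As the labels do not say which cells lack RelA, this level does not test the genotype. The arrays labelled RelA/p65 deficient are called deficient arrays below. Levels are deposited log2 expression, differences are log2 differences ± SE from limma with p-values adjusted by Benjamini-Hochberg over all genes, and a gene passed at an adjusted p under 0.05. An array level cannot tell fewer cells of a type from less RNA per cell, and the level of one probe set is not set against that of another.

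Wnt proteins are secreted lipid-modified ligands: Porcn attaches the lipid and Wls carries the finished ligand to the cell surface. At the receiving cell a ligand binds a Frizzled receptor, together with Lrp5 or Lrp6 for signalling through beta-catenin, or with Ror1, Ror2 or Ryk for signalling that acts on cell shape and movement. In the lung, Wnt signals pass between mesenchyme, epithelium and endothelium during development and repair.

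Markers of other cells the tissue could hold differed between the groups. The mean log2 expression of 15 alveolar epithelial markers lay between 10.72 and 10.91 in wild type air, 8.79 and 8.96 in wild type smoke, 11.62 and 11.67 in deficient air, and 11.56 and 11.68 in deficient smoke. Airway epithelial (10), endothelial (12) and lung fibroblast (10) markers had the same order, with the lowest levels in wild type smoke. Mitotic genes (15) ran the other way, with 9.87 to 10.03 in wild type smoke and 9.52 to 9.69 in wild type air. They had 8.37 to 8.59 in deficient air and 8.21 to 8.78 in deficient smoke, ranges that overlapped. With smoke in wild type hosts, macrophage and monocyte markers (11 of 12, 1 lower) were higher, beside 15% of all genes. Activated fibroblast and matrix genes were too (8 of 12, 2 lower). T and NK cell (11 of 11) and B cell (6 of 7) markers were higher in the deficient arrays in air and in smoke. Of all genes 20.5% and 22.7% were. Macrophage and monocyte markers were higher in the deficient arrays in air (10 of 12) and mostly lower in smoke (8, with 2 higher). No marker of the alveolar, endothelial or lung fibroblast lists stayed under a log2 expression of 6 in all arrays of any group, and 1 of the 10 airway markers did so in wild type smoke. These lists move with many of the differences below, and their part in them was not tested.

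**Figure D1:**
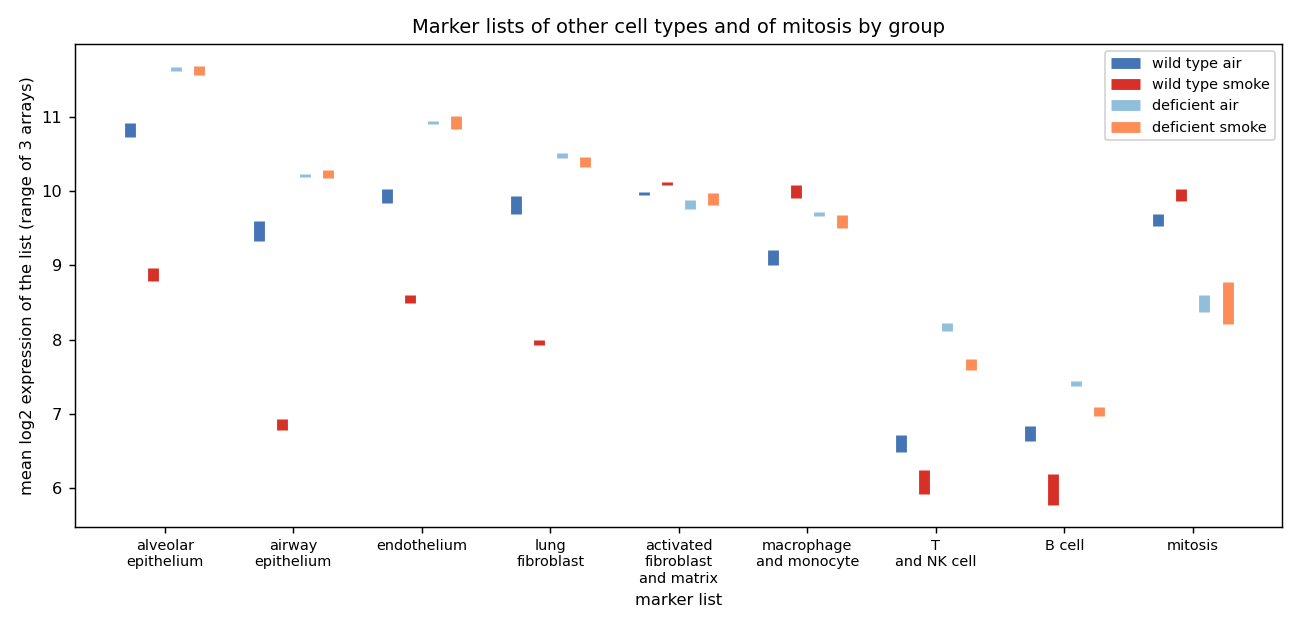
Mean log2 expression of 9 marker lists (y axis) in the 4 groups, each bar spanning the lowest to the highest of the 3 arrays. The 4 lung lists on the left have their lowest bars in wild type smoke and their highest in the deficient arrays, while the mitotic list is highest in wild type smoke.

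The first comparison asked what differed with smoke in wild type hosts. Of 10 Frizzled genes 7 fell and 2 rose, the secretion gene Porcn and the co-receptor Lrp6 fell, and of 19 ligands 2 fell (Wnt2 and Wnt7a) and 3 rose (Wnt7b, Wnt10a and Wnt3). Over all 37 members 16 passed, 5 higher and 11 lower, or 43.2% against 29% of all genes tested, of which 15% were higher and 14% lower. The median difference of the members was -0.03, beside 0.08 for all genes. The Frizzled median was -0.53, and that of the ligands 0.13.

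Within the deficient hosts none of the 37 members passed between smoke and air by limma, beside 2.41% of all genes (0.692% higher and 1.72% lower). An unadjusted limma p under 0.05 was found for 1 member, Fzd2, beside 2084 of all 19937 genes. The 37 differences lay between -0.24 (Wnt2) and 0.22 (Fzd2), and their 95% intervals between -0.55 and 0.39. The SE of each gene came from 1 spread shared by the 4 groups. The members' median SD was 0.06 and 0.08 in deficient air and smoke, against 0.16 and 0.20 in wild type air and smoke. With array weights 1 member passed, Fzd2.

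Host genotype was compared in air and again in smoke. In air 13 members passed, 9 of them higher in the deficient arrays and 4 lower, which is 35.1% beside 38.5% of all genes (20.5% higher and 18% lower). In smoke 24 passed, 13 higher and 11 lower, which is 64.9% beside 59.6% of all genes (22.7% higher and 37% lower). The 4 comparisons share arrays in pairs, so they are not independent of each other. The difference between the 2 smoke responses, tested as an interaction, passed for 11 members (29.7%, beside 14.6% of all genes). For 10 of them the smoke difference was higher in deficient than in wild type hosts (8.89% of all genes), and for 1 lower (5.7%). The 3 arrays of one group lay wholly above or below those of the other for 17 members with smoke in wild type hosts (36.9% of all genes), 5 with smoke in deficient hosts (22.7%), 18 by genotype in air (51.9%) and 24 by genotype in smoke (61.3%). The balance of higher and lower calls moved with the scaling. With each array centred on the median of the genes tested, the higher and lower members were 12 and 11 for smoke in wild type hosts, 9 and 4 for genotype in air, 12 and 16 for genotype in smoke, and 9 and 4 for the interaction, where 49.4%, 42.7%, 77.9% and 18.4% of all genes passed. Among all genes that passed, the higher ones then made up 77.1% in place of 51.8%, 39.6% in place of 53.2%, 22.9% in place of 38%, and 41.4% in place of 60.9% in these 4 comparisons.

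**Figure D2:**
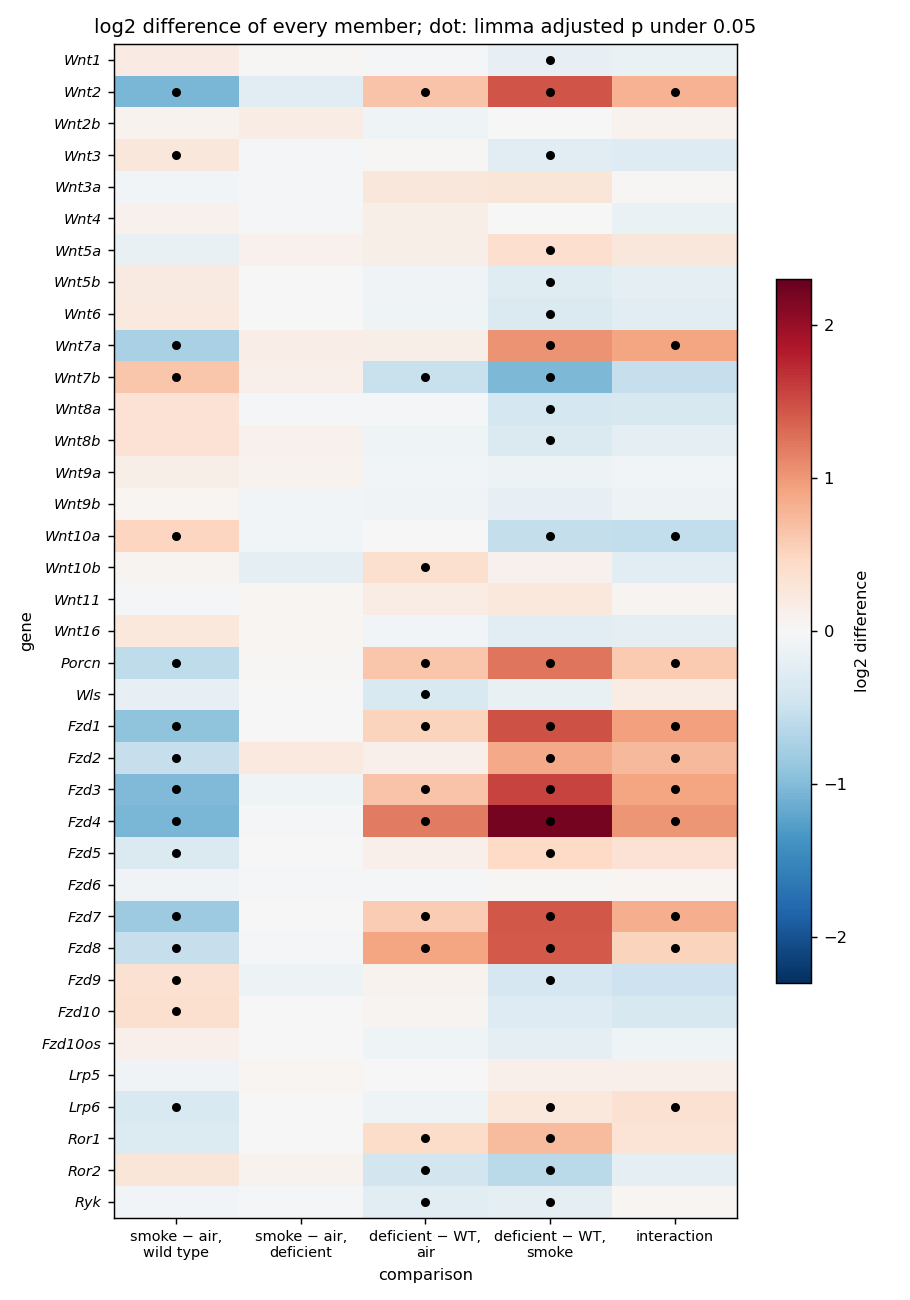
Log2 difference (colour) of the 37 members (rows, grouped as ligands, secretion genes, Frizzled genes, antisense RNA and co-receptors) in the 5 comparisons (columns); a dot marks an adjusted p under 0.05. Fzd1, Fzd3, Fzd4, Fzd7, Fzd8, Porcn and Wnt2 have a dot in 4 columns, and the column for smoke in deficient hosts has none.

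Frizzled receptors bind Wnt through a cysteine-rich outer domain, and Fzd4, which also binds Norrin and is known for its part in the growth of blood vessels, had the largest member differences by genotype in air and in smoke and the largest interaction. Fzd4 read 8.79, 8.65 and 8.82 in wild type air, 7.94, 7.66 and 7.52 in wild type smoke, 9.88, 10.02 and 9.95 in deficient air, and 9.85, 10.02 and 9.88 in deficient smoke. All 6 deficient arrays lay above all 6 wild type arrays, and the wild type smoke arrays below the wild type air arrays. It fell by 1.04 ± 0.10 with smoke in wild type hosts (2.06-fold; adjusted p = 2.97e-06). Deficient exceeded wild type arrays by 1.20 ± 0.10 in air (adjusted p = 7.56e-07) and by 2.21 ± 0.10 under smoke (4.62-fold; adjusted p = 4.64e-10). Its smoke difference in deficient hosts was -0.04, with a 95% interval from -0.25 to 0.18, and the interaction was 1.01 ± 0.14 (adjusted p = 1.79e-04).

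Fzd1 and Fzd7, close relatives that share a branch of the family with Fzd2, had the same order of groups. Fzd1 read 8.86, 9.11 and 9.22 in wild type air, 8.02, 8.25 and 8.15 in wild type smoke, 9.59, 9.57 and 9.60 in deficient air, and 9.50, 9.68 and 9.63 in deficient smoke. Its wild type smoke arrays were the lowest, and its deficient arrays, which overlapped each other, the highest. Fzd1 fell by 0.92 ± 0.09 with smoke in wild type hosts (adjusted p = 5.41e-06) and was higher in the deficient arrays by 0.52 ± 0.09 in air and 1.46 ± 0.09 in smoke.

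Fzd7 read 8.45, 8.35 and 8.72 in wild type air, 7.67, 7.48 and 7.88 in wild type smoke, 9.05, 9.14 and 9.10 in deficient air, and 9.04, 9.17 and 9.12 in deficient smoke. Again both wild type groups stood apart from each other and from the deficient arrays. It fell by 0.83 ± 0.11 (adjusted p = 5.13e-05) with smoke in wild type hosts, and its genotype difference was 0.59 ± 0.11 in air and 1.43 ± 0.11 in smoke. Fzd2 read 7.67, 7.71 and 7.78 in wild type air, 7.08, 7.16 and 7.33 in wild type smoke, 7.91, 7.79 and 7.80 in deficient air, and 7.95, 8.11 and 8.11 in deficient smoke. Its wild type air and deficient air arrays lay close together, and the genotype difference in air, 0.11 ± 0.08, did not pass. It fell by 0.53 ± 0.08 with smoke in wild type hosts (adjusted p = 1.93e-04) and was 0.87 ± 0.08 higher in deficient than wild type arrays in smoke. The interaction passed for Fzd1 (0.94 ± 0.13), Fzd7 (0.84 ± 0.15) and Fzd2 (0.75 ± 0.11).

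Fzd3, a receptor known for axon guidance and tissue polarity, was dim in wild type smoke. Its level was 6.33, 6.55 and 6.59 in wild type air, 5.22, 5.40 and 5.81 in wild type smoke, 6.98, 7.36 and 7.08 in deficient air, and 7.03, 7.12 and 6.96 in deficient smoke. The 3 sets (wild type smoke, wild type air and the deficient arrays) did not overlap. Fzd3 fell by 1.01 ± 0.14 with smoke in wild type hosts (adjusted p = 9.88e-05) and was higher in the deficient arrays by 0.65 ± 0.14 in air and 1.56 ± 0.14 in smoke. All 3 wild type smoke arrays lay under a log2 expression of 6, so Fzd3 met the intensity filter through the other groups, and no fold is given against that dim group.

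Fzd8, a receptor of the branch that also holds Fzd5, read 7.37, 7.30 and 7.32 in wild type air, 6.68, 6.82 and 6.88 in wild type smoke, 8.32, 8.32 and 8.07 in deficient air, and 8.08, 8.34 and 8.18 in deficient smoke. Every deficient array exceeded every wild type array. It fell by 0.54 ± 0.09 with smoke in wild type hosts (adjusted p = 4.85e-04), and its genotype difference of 0.90 ± 0.09 in air (adjusted p = 3.24e-06) was the second largest of the members after Fzd4. Fzd5 read 7.60, 7.78 and 7.81 in wild type air and 7.18, 7.48 and 7.51 in wild type smoke, so that the groups were separated by less than the range within each. It fell by 0.34 ± 0.09 (adjusted p = 0.0178), a call lost without wild type air replicate 3 (adjusted p = 0.0749), and was 0.46 ± 0.09 higher in deficient than in wild type arrays in smoke. The interaction passed for Fzd3 (0.91 ± 0.19) and Fzd8 (0.51 ± 0.12) and missed for Fzd5 (0.34 ± 0.13; adjusted p = 0.117).

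The other Frizzled genes did not share this order. Fzd6, a receptor of hair and tissue polarity, lay between 9.10 and 9.27 in all 12 arrays and passed in none of the comparisons. Fzd9 read 6.93, 7.01 and 6.62 in wild type air, 6.99, 7.29 and 7.35 in wild type smoke, and from 6.72 to 6.99 in the 6 deficient arrays. It rose by 0.36 ± 0.11 with smoke in wild type hosts (adjusted p = 0.0318), with 1 smoke array inside the air range, and was 0.39 ± 0.11 lower in deficient than in wild type arrays in smoke. Fzd10, at 6.18, 6.24 and 5.92 in wild type air and 6.16, 6.57 and 6.71 in wild type smoke, rose by 0.37 ± 0.12 (adjusted p = 0.0405). Both rises were lost without wild type air replicate 3 (adjusted p = 0.149 for Fzd9 and 0.173 for Fzd10), without wild type smoke replicate 2 (0.104 and 0.125) or without wild type smoke replicate 3 (0.114 and 0.157), and that of Fzd10 also without wild type air replicate 1 (0.0621) or any of 5 deficient arrays (0.0519 to 0.0554). The antisense RNA Fzd10os, between 5.42 and 5.94 in all arrays, passed nowhere.

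**Figure D3:**
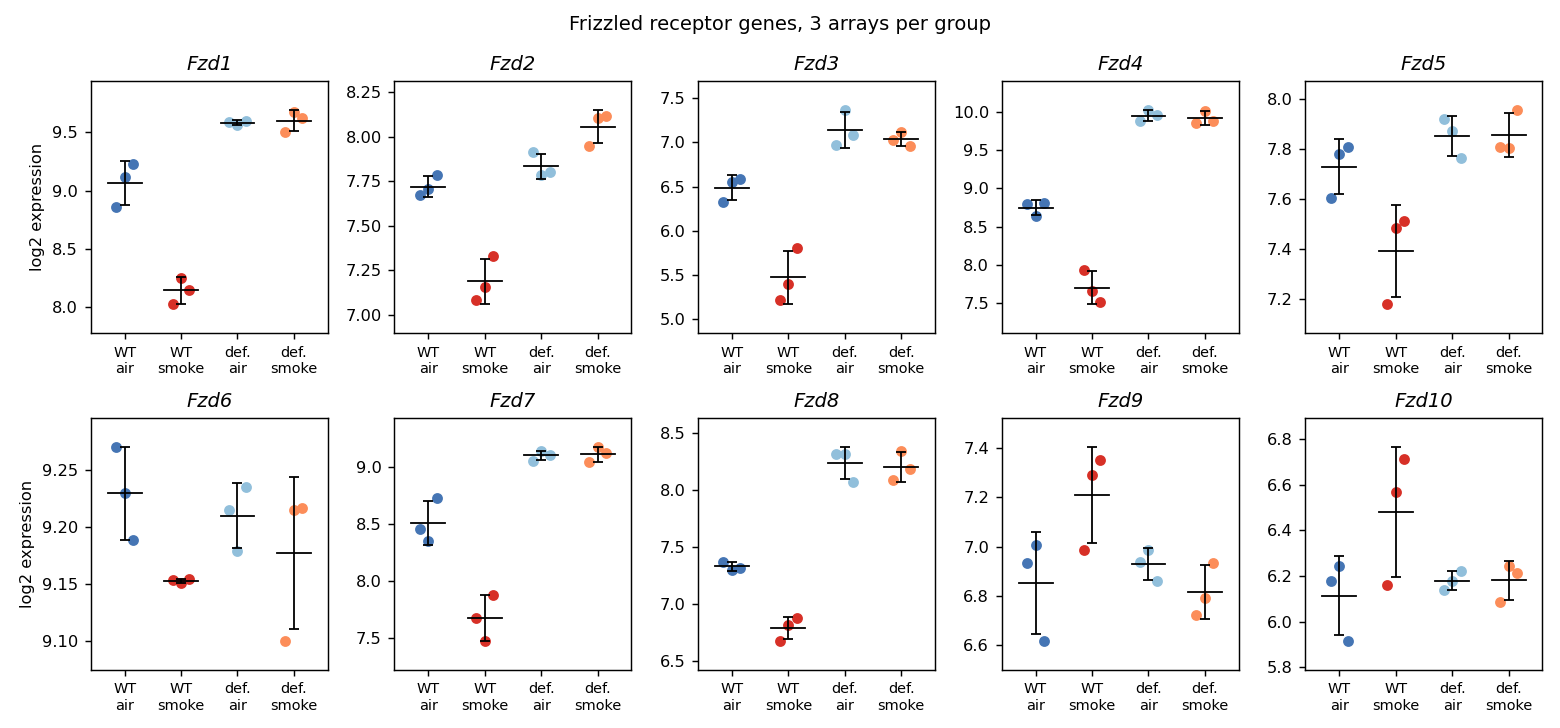
Log2 expression (y axis, its own range in each panel) of the 10 Frizzled genes in the 4 groups; points are arrays, horizontal lines group means and error bars SD (n = 3). In 7 panels (Fzd1 to Fzd5, Fzd7 and Fzd8) the red wild type smoke points are the lowest, while Fzd9 and Fzd10 have their highest points there and Fzd6 spans 9.10 to 9.27.

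Promoter sequences are shown for members that passed in the same comparisons, so that their letters can be compared. Of the 7 members that passed in 4 comparisons, RefSeq's promoter table (GRCm38.p6) held Fzd4, Fzd1, Fzd7 and Wnt2, and Fzd9 is added as a receptor gene that rose with smoke. Each sequence is the 250 bases before the annotated start, 5′ to 3′ on the gene's strand, and capitals mark GC boxes (GGGCGG on either strand, overlapping matches merged), the letters bound by Sp1-type factors. The windows are chr7:89404116-89404365 (plus strand) for Fzd4, chr5:4758217-4758466 (minus strand) for Fzd1, chr1:59481897-59482146 (plus strand) for Fzd7, chr6:18030446-18030695 (minus strand) for Wnt2 and chr5:135251048-135251297 (minus strand) for Fzd9.
Fzd4: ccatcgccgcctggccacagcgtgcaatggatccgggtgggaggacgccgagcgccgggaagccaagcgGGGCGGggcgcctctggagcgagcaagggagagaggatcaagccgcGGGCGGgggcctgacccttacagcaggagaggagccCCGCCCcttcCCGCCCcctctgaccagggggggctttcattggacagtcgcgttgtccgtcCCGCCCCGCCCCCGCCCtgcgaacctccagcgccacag
Fzd1: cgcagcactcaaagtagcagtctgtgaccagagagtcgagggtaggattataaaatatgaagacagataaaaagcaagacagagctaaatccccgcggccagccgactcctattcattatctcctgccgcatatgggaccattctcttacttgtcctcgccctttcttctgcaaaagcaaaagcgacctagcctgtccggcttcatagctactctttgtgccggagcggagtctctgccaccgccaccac
Fzd7: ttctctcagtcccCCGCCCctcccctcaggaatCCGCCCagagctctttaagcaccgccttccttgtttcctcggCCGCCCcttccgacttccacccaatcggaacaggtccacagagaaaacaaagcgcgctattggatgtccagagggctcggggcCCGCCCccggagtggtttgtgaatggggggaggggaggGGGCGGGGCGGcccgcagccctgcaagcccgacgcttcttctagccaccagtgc
Wnt2: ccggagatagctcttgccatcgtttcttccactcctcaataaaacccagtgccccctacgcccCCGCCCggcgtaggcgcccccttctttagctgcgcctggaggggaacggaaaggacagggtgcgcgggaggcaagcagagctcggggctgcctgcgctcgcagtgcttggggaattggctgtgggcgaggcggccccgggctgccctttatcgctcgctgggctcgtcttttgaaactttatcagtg
Fzd9: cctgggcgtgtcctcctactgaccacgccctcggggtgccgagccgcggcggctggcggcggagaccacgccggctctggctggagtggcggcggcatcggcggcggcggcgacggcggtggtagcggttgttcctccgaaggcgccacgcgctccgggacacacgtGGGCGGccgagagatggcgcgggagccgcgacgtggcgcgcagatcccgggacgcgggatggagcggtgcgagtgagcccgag
The Fzd4 and Fzd7 windows held 7 and 6 GC boxes, those of Wnt2 and Fzd9 held 1 each, and the Fzd1 window held 0. Fzd1 differed in base composition too, with 51.2% G or C against 72.8% in Fzd4, 65.2% in Fzd7, 63.6% in Wnt2 and 76.4% in Fzd9, and it alone of the 5 held the TATA box letters TATAAA. The xenobiotic response core GCGTG, the letters bound by the aryl hydrocarbon receptor, occurred 1 time in Fzd4 and 4 times in Fzd9. The consensus for NF-kB was found in none of the 5 windows.

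Of the 37 members 25 had an entry in that table, with 28 windows. A GC box was in 78.6% of these windows against 32.7% of all 32851 windows of that length, and GCGTG in 50% against 28.2%. The NF-kB consensus was in 3.57% against 3.9%, in Wnt10b alone among members, and the TCF/LEF core CTTTGA in 14.3% against 13.8%. All motifs were searched on both strands and may overlap one another. The members' windows had a median of 71.2% G or C, against 52.4% over all windows, and both GGGCGG and GCGTG are rich in these bases. A match is only a match of letters, and its absence says nothing of a factor's binding.

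Among ligands, Wnt2, which is made by lung mesenchyme in development and promotes lung growth there, was the one with the largest fall. Wnt2 read 7.78, 7.48 and 7.82 in wild type air, 6.26, 6.79 and 6.88 in wild type smoke, 8.32, 8.43 and 8.27 in deficient air, and 8.0, 8.11 and 8.19 in deficient smoke. All deficient arrays were above the wild type air arrays, which were above the wild type smoke arrays. It fell by 1.05 ± 0.14 with smoke in wild type hosts (2.07-fold; adjusted p = 7.95e-05) and was higher in the deficient arrays by 0.65 ± 0.14 in air and 1.45 ± 0.14 in smoke. In the deficient hosts its smoke difference was -0.24 ± 0.14 (adjusted p = 0.649), with groups that did not overlap, as held for 22.7% of all genes there. The interaction was 0.80 ± 0.20 (adjusted p = 0.0136).

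Wnt7a and Wnt7b, a pair of close paralogues, differed in opposite directions. Wnt7a, a ligand of airway and other epithelia, read 7.16, 7.19 and 7.43 in wild type air, 6.53, 6.39 and 6.63 in wild type smoke, 7.23, 7.52 and 7.41 in deficient air, and 7.35, 7.65 and 7.63 in deficient smoke. Its wild type smoke arrays stood apart below the other 3 groups, which overlapped. It fell by 0.75 ± 0.11 with smoke in wild type hosts (adjusted p = 1.84e-04), was 1.03 ± 0.11 higher in deficient than in wild type arrays in smoke, and had an interaction of 0.90 ± 0.15 (adjusted p = 0.0011).

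Wnt7b, known as a ligand of lung epithelium that acts on the mesenchyme beneath, read 8.51, 8.19 and 8.10 in wild type air, 8.77, 8.89 and 9.07 in wild type smoke, 7.73, 7.75 and 7.80 in deficient air, and 8.04, 7.64 and 7.96 in deficient smoke. Here the order was reversed, with the wild type smoke arrays highest and the deficient arrays lowest. It rose by 0.65 ± 0.12 with smoke in wild type hosts (1.56-fold; adjusted p = 0.00132). It was lower in the deficient arrays by -0.51 ± 0.12 in air (adjusted p = 0.00406) and by -1.03 ± 0.12 under smoke (adjusted p = 8.09e-06). Its interaction, -0.52 ± 0.17, missed the threshold in the main fit (adjusted p = 0.0586). The term passed with the intensity filter (adjusted p = 0.0481), a prior trend (0.0432), array weights (0.0197) or centring (0.039 and 0.0207). It also passed without wild type air replicate 1 (0.0148), wild type smoke replicate 1 (0.0252) or deficient smoke replicate 1 (0.0413). With smoke in wild type hosts alveolar (14 of 15), airway (9 of 10), endothelial (12 of 12) and lung fibroblast (10 of 10) markers were lower. So were 5 of 11 T and NK cell and 4 of 7 B cell markers. Higher were macrophage and monocyte markers (11 of 12, 1 lower), activated fibroblast and matrix genes (8 of 12, 2 lower) and mitotic genes (6 of 15). Of all genes 15% were higher and 14% lower. The part of these lists in the Wnt7b difference was not tested.

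Wnt10a, known for its part in teeth, hair and skin appendages, read 7.07, 7.39 and 7.0 in wild type air, 7.48, 7.72 and 7.75 in wild type smoke, 7.22, 7.10 and 7.18 in deficient air, and 7.09, 6.96 and 7.24 in deficient smoke. The wild type smoke arrays were above all the others. It rose by 0.50 ± 0.11 (adjusted p = 0.00424) with smoke in wild type hosts and was -0.55 ± 0.11 lower in deficient than in wild type arrays in smoke. The interaction of -0.57 ± 0.15 (adjusted p = 0.0248) was lost on leaving out any 1 of 7 arrays: wild type air replicate 1 or 3, wild type smoke replicate 2 or 3, deficient air replicate 1 or 3, or deficient smoke replicate 2 (adjusted p from 0.0548 to 0.073). Wnt3, a ligand that signals through beta-catenin, rose by 0.25 ± 0.08 (adjusted p = 0.0298), from 5.83, 6.16 and 6.01 to 6.23, 6.20 and 6.32, and was -0.27 ± 0.08 lower in deficient arrays in smoke. Its rise was lost without wild type air replicate 1 (adjusted p = 0.117) or 3 (0.0733) or wild type smoke replicate 3 (0.0957). It was also lost with quantile normalization (0.0626), a prior trend (0.0598) or 6 arrays alone (0.122). The genotype difference of Wnt3 in smoke was lost with quantile normalization (-0.17, adjusted p = 0.0578). Wnt3 was dim, reaching a log2 expression of 6 in 8 of the 12 arrays and 6.32 at most.

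Wnt5a, the main ligand of signalling apart from beta-catenin, read 8.15, 8.06 and 8.11 in wild type air, 8.10, 7.86 and 7.86 in wild type smoke, 8.24, 8.29 and 8.21 in deficient air, and 8.28, 8.33 and 8.39 in deficient smoke. Its deficient arrays lay above its wild type arrays, and the difference passed in smoke, at 0.39 ± 0.07 (adjusted p = 4.81e-04), and not in air, at 0.14 ± 0.07. The interaction did not pass (0.25 ± 0.10; adjusted p = 0.13), so the genotype difference was not shown to differ between air and smoke. Wnt10b, a ligand known for restraining fat cell formation, was higher in the deficient arrays in air by 0.37 ± 0.11 (adjusted p = 0.0195), at 7.58, 7.46 and 7.49 against 7.12, 7.32 and 6.98. That call was lost without wild type air replicate 1 (adjusted p = 0.0563), wild type air replicate 3 (0.0858) or deficient air replicate 1 (0.07).

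Further ligands were lower in deficient than in wild type arrays in smoke, each by less than 0.5: Wnt1 by -0.19, Wnt5b by -0.27, Wnt6 by -0.34, Wnt8a by -0.41 and Wnt8b by -0.33, with adjusted p from 0.023 to 0.0482. Wnt1 and Wnt8b lay between 4.64 and 5.59 in all arrays, below the intensity filter. Each of these 5 calls was lost without wild type smoke replicate 2 (adjusted p = 0.0714, 0.21, 0.162, 0.161 and 0.146) and without wild type smoke replicate 3 (0.085, 0.0513, 0.123, 0.136 and 0.0954). They were also lost without deficient smoke replicate 1 (0.0548 to 0.158) or replicate 2 (0.0521 to 0.109), and, for Wnt1 and Wnt5b, without replicate 3 (0.0552 and 0.104). The Wnt5b call was lost besides without wild type air replicate 1 (0.0603) or any 1 of the deficient air arrays (0.0563 to 0.0617), and that of Wnt6 without wild type air replicate 1 (0.0538) or deficient air replicate 3 (0.0547). The remaining 7 ligands (Wnt2b, Wnt3a, Wnt4, Wnt9a, Wnt9b, Wnt11 and Wnt16) passed in no comparison, with differences from -0.27 to 0.28 across the 5 comparisons.

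Secretion genes differed from each other. Porcn, the enzyme that attaches the lipid, read 7.39, 7.54 and 7.45 in wild type air, 6.57, 7.02 and 7.04 in wild type smoke, 8.15, 8.07 and 8.04 in deficient air, and 8.07, 8.14 and 8.11 in deficient smoke. As for Fzd4, the order was wild type smoke, wild type air and then the deficient arrays, with no overlap between the 3. Porcn fell by 0.58 ± 0.10 with smoke in wild type hosts (adjusted p = 0.00108), was higher in the deficient arrays by 0.63 ± 0.10 in air and 1.23 ± 0.10 in smoke (2.35-fold; adjusted p = 3.84e-07), and had an interaction of 0.60 ± 0.15 (adjusted p = 0.0141). Wls, the carrier of the finished ligand, read 10.98, 11.01 and 11.27 in wild type air, 10.93, 10.86 and 10.93 in wild type smoke, 10.74, 10.72 and 10.77 in deficient air, and 10.72, 10.78 and 10.68 in deficient smoke. It was lower in the deficient arrays, by -0.34 ± 0.08 in air (adjusted p = 0.00277), and by -0.18 ± 0.08 without passing in smoke (adjusted p = 0.0609).

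Lrp5 and Lrp6, the co-receptors of the beta-catenin branch, differed little. Lrp5 lay between 9.01 and 9.21 in all arrays and passed in no comparison. Lrp6 read 9.61, 9.69 and 9.63 in wild type air, 9.44, 9.27 and 9.14 in wild type smoke, and from 9.51 to 9.57 in the 6 deficient arrays, so that wild type smoke alone stood apart below. It fell by 0.36 ± 0.07 with smoke in wild type hosts (adjusted p = 0.00271). It was 0.25 ± 0.07 higher in deficient than in wild type arrays in smoke, a call lost without wild type smoke replicate 3 (adjusted p = 0.0548). The interaction of 0.35 ± 0.10 (adjusted p = 0.0391) was lost on leaving out any 1 array other than wild type smoke replicate 1 (adjusted p from 0.0519 to 0.0941). It was also lost with each array centred on its median (adjusted p = 0.0774) or on the median of the genes tested (0.114).

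Ror1 and Ror2, paired receptor kinases for Wnt5a, differed in opposite directions by genotype. Ror1 read 7.30, 7.54 and 7.58 in wild type air, 6.78, 7.34 and 7.32 in wild type smoke, 7.97, 7.83 and 7.86 in deficient air, and 7.79, 7.89 and 7.97 in deficient smoke. Deficient exceeded wild type arrays by 0.42 ± 0.13 in air (adjusted p = 0.0204) and by 0.74 ± 0.13 under smoke (adjusted p = 3.11e-04), and the call in air was lost without wild type air replicate 1 (adjusted p = 0.095) or deficient air replicate 1 (0.0748). Ror2 read 7.65, 7.81 and 7.53 in wild type air, 7.65, 8.07 and 8.10 in wild type smoke, 7.25, 7.16 and 7.33 in deficient air, and 7.29, 7.27 and 7.41 in deficient smoke. It was lower in the deficient arrays by -0.42 ± 0.11 in air (adjusted p = 0.00907) and by -0.62 ± 0.11 under smoke (adjusted p = 4.27e-04). For each of the 2 genes all 6 deficient arrays lay on one side of all 6 wild type arrays.

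Ryk, a receptor with an inactive kinase domain, was also lower in the deficient arrays. It read 10.46, 10.43 and 10.56 in wild type air, 10.39, 10.43 and 10.42 in wild type smoke, 10.22, 10.24 and 10.20 in deficient air, and 10.25, 10.19 and 10.14 in deficient smoke. Ryk differed by -0.26 ± 0.06 in air (adjusted p = 0.00318) and by -0.22 ± 0.06 under smoke (adjusted p = 0.00689), and neither smoke comparison passed. In both genotype comparisons mitotic genes were lower in the deficient arrays (15 of 15), beside 18% of all genes in air and 37% in smoke. Activated fibroblast and matrix genes were mixed (4 of 12 higher and 6 lower in air, 3 higher and 9 lower in smoke). Macrophage and monocyte markers were higher in air (10 of 12) and mostly lower in smoke (8, with 2 higher). Endothelial (12 of 12), T and NK cell (11 of 11) and B cell (6 of 7) markers were higher in both. So were most alveolar, airway and lung fibroblast markers. Of all genes 20.5% were higher in air and 22.7% in smoke. The part of these lists in the Ryk difference was not tested.

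**Figure D4:**
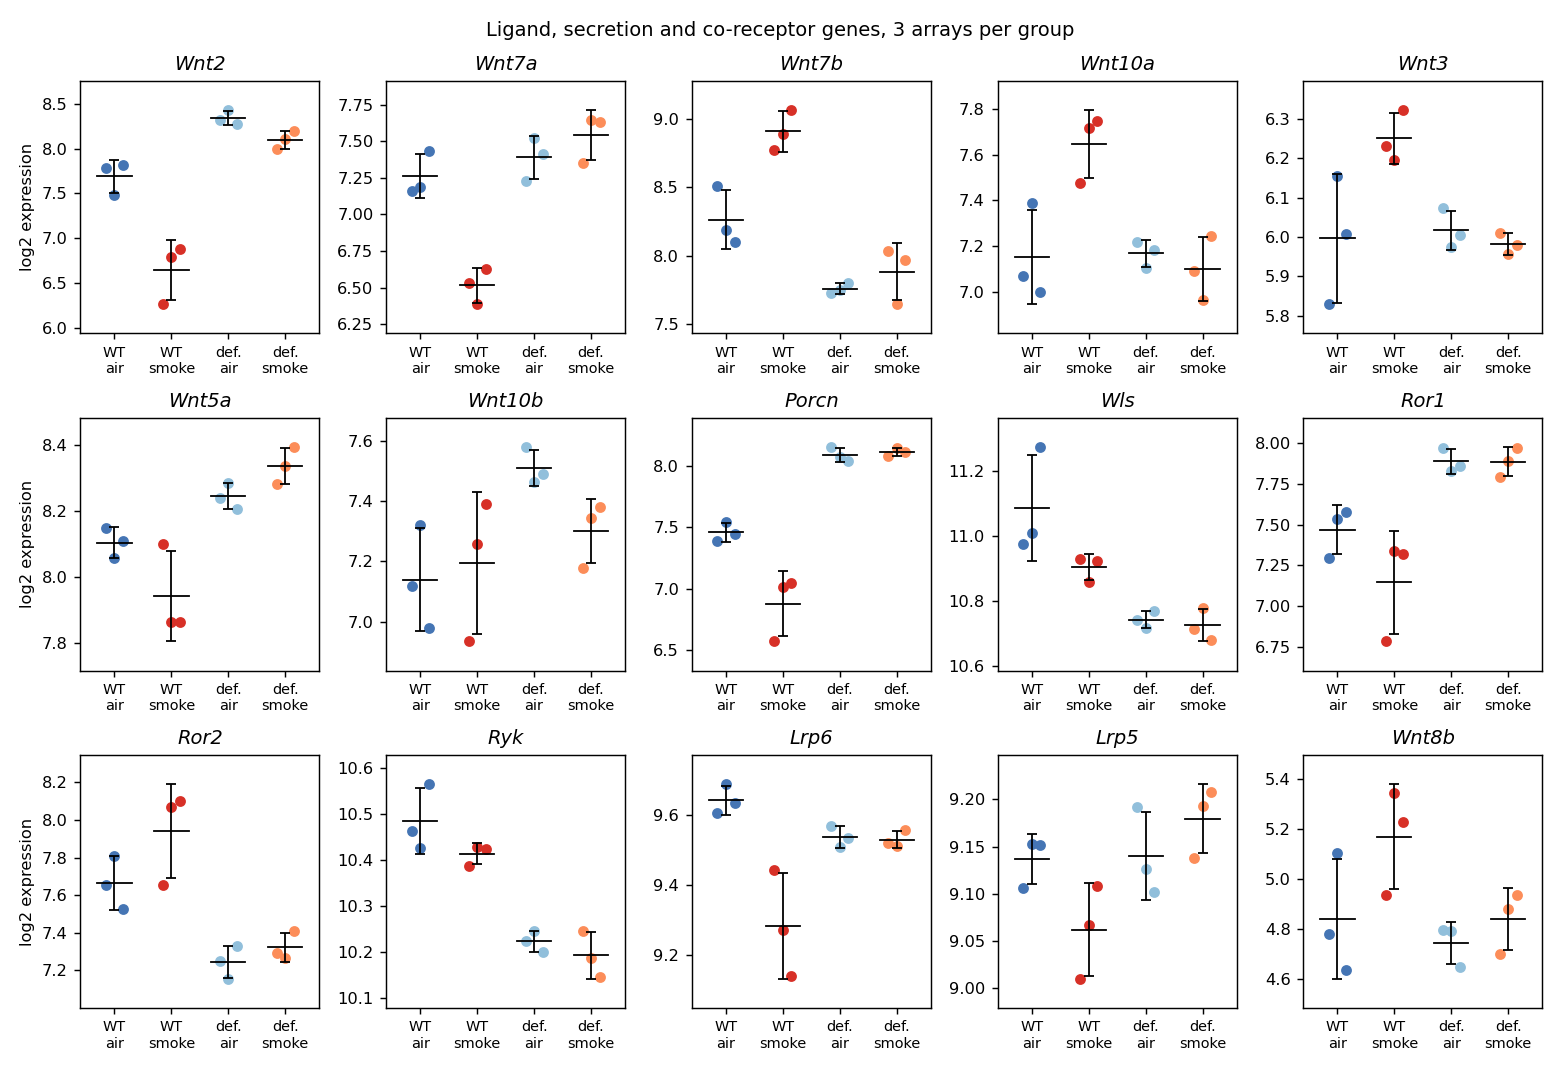
Log2 expression (y axis, its own range in each panel) of 15 ligand, secretion and co-receptor genes in the 4 groups; points are arrays, lines group means and bars SD (n = 3). Wnt2, Wnt7a, Porcn and Lrp6 are lowest in wild type smoke, Wnt7b, Wnt10a and Wnt3 are highest there, and Wls and Ryk are lower in both deficient groups than in either wild type group.

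The interaction asked whether smoke differences depended on the host. It passed for 6 of 10 Frizzled genes, for Porcn, Lrp6, Wnt2 and Wnt7a in one direction, and for Wnt10a in the other. In the 10 members of the first direction the fall in wild type hosts ranged from -0.36 to -1.05, while their differences in deficient hosts ranged from -0.24 to 0.22. These members were picked by the interaction, which is the difference of these same values, so that contrast is no separate result. Over the same term 14 of 15 alveolar, 12 of 12 endothelial and 10 of 10 lung fibroblast markers passed in the first direction, beside 8.89% of all genes. Macrophage and monocyte markers mostly passed in the other direction (10 of 12, with 1 in the first), beside 5.7% of all genes.

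**Figure D5:**
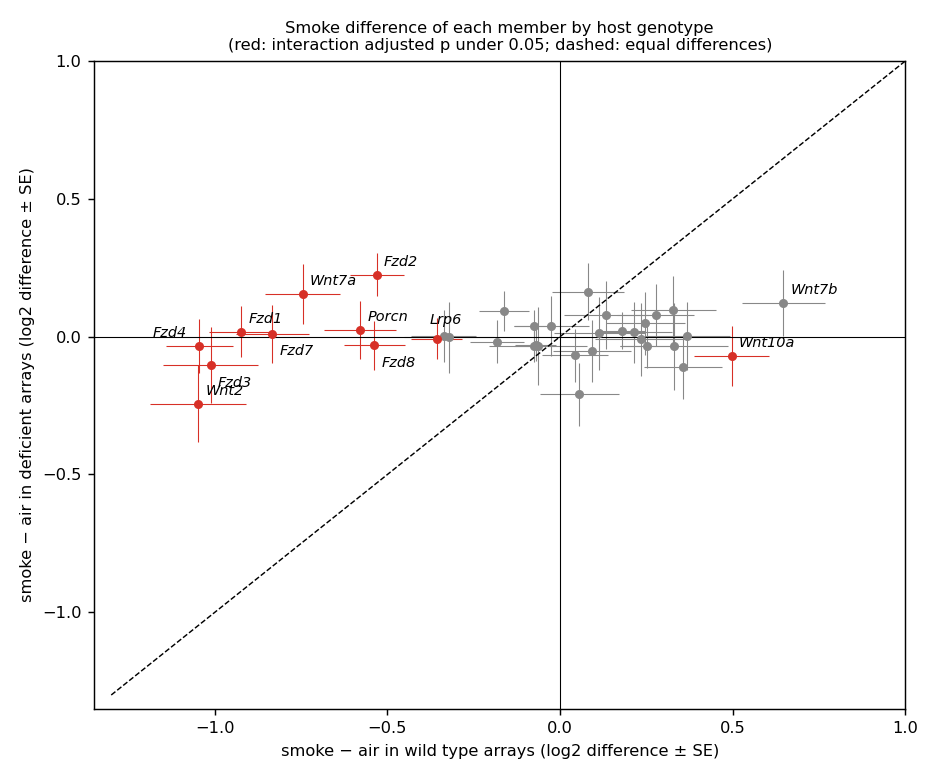
Smoke minus air difference (log2, ± SE) of the 37 members in wild type arrays (x axis) and in deficient arrays (y axis); red marks members whose interaction passed and the dashed line marks equal differences. Along x the members spread from -1.05 to 0.65, along y from -0.24 to 0.22.

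Other genes of the pathway were counted from 4 lists. Of all genes 15% rose and 14% fell with smoke in wild type hosts, and 0.692% and 1.72% in deficient hosts. By genotype 20.5% of all genes were higher and 18% lower in air, and 22.7% and 37% in smoke. The interaction passed for 8.89% as higher and 5.7% as lower. The list counts below are to be read beside these shares. Of 24 receptor-level modulators, which act on ligand or receptor at the cell surface, 2 rose and 7 fell with smoke in wild type hosts, among them the glypican Gpc3 (-3.01 ± 0.09), the Fzd4 partner Tspan12 (-2.38 ± 0.09) and Reck (-2.17 ± 0.09), which with a further membrane protein passes Wnt7 to Frizzled. In the deficient arrays these 3 were higher in smoke by 3.80, 3.07 and 3.17, and 8 modulators were higher and 5 lower in all. In air 7 were higher and 4 lower, and in deficient hosts none passed with smoke.

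Of 31 intracellular transducers 2 rose and 4 fell with smoke in wild type hosts, led by Nkd1, a feedback inhibitor that binds Dishevelled (-1.39 ± 0.10). Deficient arrays had 3 higher and 11 lower in air, among them the Apc relative Apc2 (-0.88 ± 0.07) and Dishevelled Dvl2 (-0.65 ± 0.07), and 10 higher and 9 lower in smoke. For Nkd1 the genotype difference was 0.94 in air and 2.27 in smoke. Axin2, a feedback gene of beta-catenin signalling, had an interaction of 0.37 ± 0.11 (adjusted p = 0.0352), the only other transducer beside Nkd1 to pass it.

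Of 26 genes of the polarity and calcium branch 4 rose and 5 fell with smoke in wild type hosts, with the polarity genes Prickle1 and Prickle2 at -1.28 ± 0.08 and -1.99 ± 0.14. In deficient arrays 7 were higher and 5 lower in air, and 8 and 9 in smoke. Of 13 secreted antagonists 1 rose and 4 fell with smoke in wild type hosts, with Frzb at -2.07 ± 0.11 and Dkk3 at -1.45 ± 0.14. Frzb was also lower in deficient than in wild type arrays in air (-2.62 ± 0.11), where Sfrp4 was higher (0.82 ± 0.09). Deficient arrays had 3 antagonists higher and 2 lower in air, and 4 and 6 in smoke. In deficient hosts Sfrp4, a Frizzled-related antagonist, was the 1 gene of the 4 lists that passed with smoke (-0.45 ± 0.09; adjusted p = 0.0134).

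Within groups the members' arrays did not scatter evenly. Wild type smoke replicate 1 was the lowest array of its group for 29 of 37 members, beside 44.5% of all genes, and deficient smoke replicate 1 for 25 of 37, beside 37.1%. In wild type air replicate 2 was the highest array for 21 members, beside 37.2% of all genes. The median SD of the members was 0.16 in wild type air and 0.20 in wild type smoke, against 0.06 and 0.08 in deficient air and smoke. Over all genes these were 0.10, 0.13, 0.06 and 0.08. With the 6 arrays of each comparison fitted alone, 12 members passed with smoke in wild type hosts (17.3% of all genes) and 20 by genotype in smoke (51.2%). Calls lost were those of Fzd5, Fzd9, Fzd10 and Wnt3 with smoke, and of Lrp6, Wnt1, Wnt6 and Wnt8a by genotype. Smoke in deficient hosts gave 0 members (5.11%) and genotype in air 13 (41.6%). Without wild type smoke replicate 1 the members passing in the interaction numbered 18 in place of 11, with 11 higher and 7 lower, while the share of all genes went from 14.6% to 24.9%. Those passing with smoke in wild type hosts then numbered 24, with 12 higher and 12 lower, and the share of all genes went from 29% to 44.3%.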

How the data were processed

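The 12 arrays (3 for each pair of genotype and exposure) were used as log2 values deposited by the authors, made in Affymetrix Expression Console with RMA per the submitters' processing notes; versions and genome build are not given in the sources used here. Of 34760 probe sets the platform annotation names 1 gene for 21640 and several for 1321, and lists no gene for 11799. Multi-gene and unlisted probe sets were left out, and the highest-mean probe set per gene gave 19937 genes. A gene table of GRCm38.p6 held the Entrez identifiers of 21553 of these and changed 0 symbols.

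limma 3.58.1 in R 4.3.3 fitted 1 mean per group to all 12 arrays (residual df 8, prior df 4.83), with 5 two-sided comparisons and Benjamini-Hochberg adjustment over all genes (limit 0.05). The fit was tested on simulated data. Every member is named; of each pathway list up to 3 passing genes per comparison, those with the smallest p. Members and lists were chosen with earlier results of these data known. Precision is limited by 3 arrays per group. Python 3.11.15 and matplotlib 3.10.9 drew the plots. Alternatives were an intensity filter, mean of probe sets, a prior trend, array weights, quantile normalization, centring, the replicate number as a block, fits of 6 arrays alone and leaving out each array.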

Additional observations from a re-analysis of the deposited data

Results flagged for a closer look

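The smoke difference of 11 members differed between host genotypes by the interaction term of limma (deficient minus wild type, log2). The Frizzled genes had 1.01 for Fzd4, 0.94 for Fzd1, 0.91 for Fzd3, 0.84 for Fzd7, 0.75 for Fzd2 and 0.51 for Fzd8. Wnt7a had 0.90, Wnt2 0.80, Porcn 0.60 and Lrp6 0.35, and Wnt10a had -0.57. Adjusted p-values ran from 1.79e-04 for Fzd4 to 0.0391 for Lrp6. The calls of Lrp6 and Wnt10a were lost when single arrays were left out, and that of Lrp6 also with centring. The other 9 passed in each of the 20 alternative settings. Lung epithelial, endothelial and fibroblast markers had interactions in the same direction as the 10 positive members, and their part in these values was not tested.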

How the results depend on the processing

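No called difference of a member changed sign in any of the settings run. Members passing numbered 12 to 30 for smoke in wild type hosts (16 as reported), 0 to 1 for smoke in deficient hosts (0), 11 to 14 for genotype in air (13), 19 to 32 for genotype in smoke (24) and 9 to 23 for the interaction (11). Array weights gave 30, 1 and 23 members for smoke in wild type hosts, smoke in deficient hosts and the interaction, where 51.2%, 6.86% and 33.4% of all genes passed. For genotype in smoke they gave 32 members, where 75.2% of all genes passed. Leaving out each array in turn gave 9 to 18 for the interaction, beside 11.2% to 24.9% of all genes, both highest without wild type smoke replicate 1. Centring each array on the median of the genes tested, chosen after seeing the data, moved the median difference of all genes from -0.14 to -0.28 for genotype in smoke and from 0.08 to 0.17 for smoke in wild type hosts. In the latter it raised the share of higher genes among all that passed from 51.8% to 77.1%, and gave 12 members higher and 11 lower in place of 5 and 11. For genotype in smoke it gave 12 higher and 16 lower in place of 13 and 11, Lrp6 no longer passing (0.10; adjusted p = 0.28). With quantile normalization 13 were higher and 7 lower, beside 55.1% of all genes passing. Wnt1 and Wnt8b were then at -0.05 and -0.18 and did not pass (adjusted p = 0.456 and 0.225). Wnt3 and Wnt8a no longer passed either (adjusted p = 0.0578 and 0.0521). The replicate number as a block gave 17, 0, 13, 25 and 11 members in the 5 comparisons. These counts stood beside 30.5%, 2.21%, 39%, 59.8% and 15.1% of all genes. Correlations of deviations were over 0.1 in 7 of 18 same-numbered and 5 of 36 other pairs of arrays from different groups, and 7 of 12 arrays correlated best with their own number. These correlations ran from -0.36 to 0.37 in same-numbered pairs and from -0.59 to 0.49 in other pairs. The labels state no pairing, so the main fit held no block. Whether arrays of the same number were handled together is not stated and was not tested. Dim members limit the depth of the data: Wnt1, Wnt8b and Fzd10os stayed under the intensity filter.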
